A study of Mus musculus with 12 samples.

Results

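The regions described here are places in short mouse genes where an antibody against m1A enriched RNA fragments from the caudate putamen, the dorsal part of the striatum. A region is the union of overlapping peaks from 6 peak lists, and it was included when a peak summit on chromosomes 1 to 19 lay inside a protein-coding gene whose RefSeq span is under 5 kb. This rule gave 583 regions, built from 1303 peaks, out of 13572 regions in all (13137 of them on chromosomes 1 to 19). They lay in 423 of the 4569 protein-coding genes under 5 kb (9.26%).

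All mice were adult males carrying the floxed allele Tet1 fl/fl, and all had an adeno-associated virus injected into the caudate putamen. The control group received AAV-EGFP and is labelled Tet1 fl/fl, and the KO group received AAV-Cre-EGFP and is labelled Tet1 delta/delta. Tissue was taken 2 weeks later. Each group had 3 m1A pull-down libraries (controls 1 to 3 and KO 1 to 3), each with its own input library, 12 samples in all. The promoter that drives Cre is not given in the sources used here, and the tissue was taken in bulk, so cells without Cre may be present. The labels do not say whether libraries came from separate animals, so a p-value here speaks only of how much these libraries vary, and that variation may be technical. TET1 is a dioxygenase known for oxidising methylated cytosine in DNA, and the study asked where in the transcriptome its loss changes m1A.

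N1-methyladenosine, m1A, is an adenosine with an added methyl group that blocks normal base pairing and adds a positive charge. It is abundant in transfer and ribosomal RNA, where it helps hold folded structures together, and it is much rarer in messenger RNA, where mapped sites often lie near the start of the transcript or at a motif like that of the transfer RNA T-loop. Short genes include many with few or no introns, such as histones and immediate early genes, and many housekeeping genes such as those of the ribosome and the respiratory chain.

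The stretch around the start of transcription is printed for 5 genes to show what lies at the edge of these regions. Hexim1 and H3c13 had a region in all 6 libraries, Tmem254b in the 3 KO libraries and in no control, and Atf5 and Rasl11b in the 3 controls and in no KO library. Each stretch runs from 70 bases before to 30 bases after a RefSeq start on the gene's own strand (GRCm38.p6), and capitals mark bases inside the merged m1A region.
Hexim1, chr11:103116255-103116354, plus strand: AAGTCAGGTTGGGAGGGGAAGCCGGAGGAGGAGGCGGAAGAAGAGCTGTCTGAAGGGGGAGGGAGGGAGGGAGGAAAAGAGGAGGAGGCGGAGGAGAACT
H3c13, chr3:96268584-96268683, plus strand: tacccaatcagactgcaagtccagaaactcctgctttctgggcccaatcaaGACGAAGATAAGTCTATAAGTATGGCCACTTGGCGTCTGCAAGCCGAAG
Tmem254b, chr14:26206501-26206600, minus strand: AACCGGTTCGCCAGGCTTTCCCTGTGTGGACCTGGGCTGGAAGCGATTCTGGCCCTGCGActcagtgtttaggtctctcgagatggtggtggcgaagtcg
Atf5, chr7:44816629-44816728, minus strand: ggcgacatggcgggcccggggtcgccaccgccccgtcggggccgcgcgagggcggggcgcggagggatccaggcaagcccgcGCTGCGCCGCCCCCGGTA
Rasl11b, chr5:74195256-74195355, plus strand: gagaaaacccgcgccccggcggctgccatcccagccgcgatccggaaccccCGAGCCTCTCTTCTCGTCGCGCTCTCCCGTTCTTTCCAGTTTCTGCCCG
The Hexim1 region covered all 100 printed bases, the H3c13 and Rasl11b regions began 19 bases before the start, and the Atf5 region began at base 13 of the transcript. For Tmem254b the printed stretch is at the later of its RefSeq starts, inside the gene's span, and the region covered the first 60 printed bases. Tmem254c, a near-identical copy of Tmem254b, also had a peak in control 2. A merged region is as wide as its widest peak calls and is not a position of m1A.

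The 6 lists differed in length and depth, and 2 of them stood apart. They held 3062, 3334 and 2918 peaks on chromosomes 1 to 19 in controls 1, 2 and 3, and 3662, 6711 and 2980 in KO 1, 2 and 3. The caller used 459332 to 1097292 pull-down tags in the controls and 1235247 to 2508102 in the KO libraries, so the shallowest KO pull-down exceeded the deepest control. Control 1 was the shallowest and, per the file headers, was called with every duplicate tag kept. KO 2 was the deepest and had the longest list. Of the regions in a library's list that lay in genes of 5 kb or more, 68.9% in control 1 and 65.2% in KO 2 were called in no other library, against 17.4% to 28.5% in the other 4. Markers of the tissue's cell types were present. Of 14 genes marking medium spiny neurons, 11 had a peak in some library, among them Ppp1r1b, Pde10a, Adcy5 and Gng7 in all 3 libraries of both groups. So had 6 of 12 astrocyte, 6 of 10 oligodendrocyte, 3 of 10 microglial and 4 of 7 endothelial markers. Markers of cells outside the caudate putamen also had peaks: 4 of 5 for cortical excitatory neurons, with Slc17a7 in all 6 libraries, and 2 of 4 for choroid plexus. These peaks therefore do not single out the striatum, and carry-over of other tissue was not tested. Drd1, a defining marker of the direct pathway, had no peak in any list, nor had Pdyn and Tac1, peptide genes of that pathway. Drd2, Adora2a, Penk and Gpr6, which mark the indirect pathway, had a peak in both groups.

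Short genes were a modest part of each list, and that part did not separate the genotypes. Controls 1, 2 and 3 had 93, 230 and 237 peaks in short genes, and KO 1, 2 and 3 had 271, 260 and 212. As a share of the list this was 3.04%, 6.90% and 8.12% in the controls and 7.40%, 3.87% and 7.11% in the KO libraries. The lowest shares in each group belonged to the 2 libraries that stood apart, and the remaining 4 lay between 6.90% and 8.12%. The mean was 6.13% ± 1.96 (SD, n = 3) in KO and 6.02% ± 2.65 (SD, n = 3) in control, a difference of 0.110 percentage points (exact two-sided permutation test, p = 0.900). With 3 libraries against 3 the smallest p this test can give is 0.1, so none of these comparisons could pass 0.05. The sign of this difference turned when control 1, KO 1 or KO 3 was left out, and it was -1.38 percentage points without control 1.

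**Figure D1:**
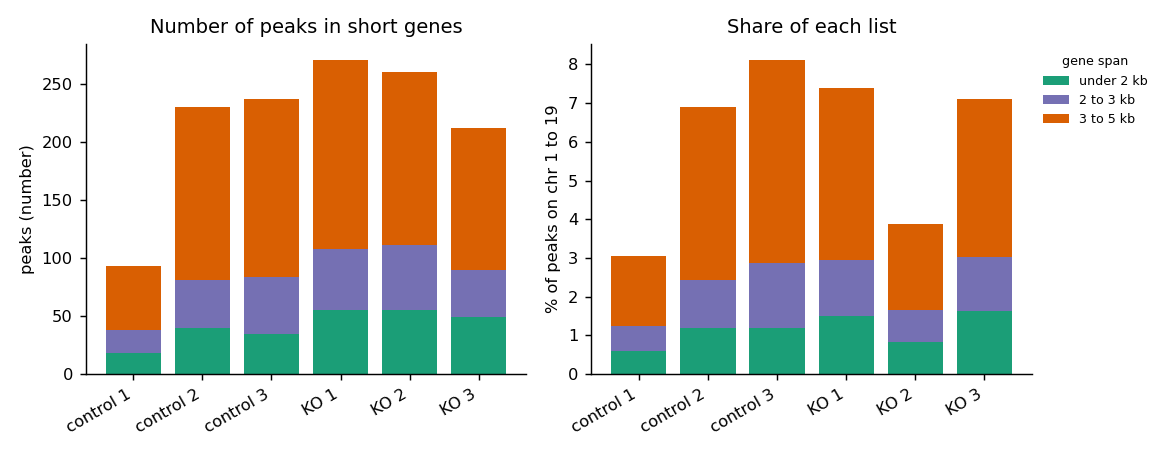
Peaks in protein-coding genes under 5 kb in each of the 6 libraries, as a number (left) and as a percentage of the library's peaks on chromosomes 1 to 19 (right), stacked by gene span. KO libraries have more peaks in genes under 2 kb (49 to 55 against 18 to 40), while the shares of control 1 (3.04%) and KO 2 (3.87%) fall below those of the other 4 libraries.

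Within the short genes, the very shortest ones had more peaks in KO. Genes under 2 kb had 18, 40 and 35 peaks in controls 1, 2 and 3 and 55, 55 and 49 in KO 1, 2 and 3, and the groups did not overlap. The means were 31.0 ± 11.5 and 53.0 ± 3.46 (SD, n = 3 each; exact permutation p = 0.1, the smallest possible). As a share of each list, genes under 2 kb took 0.996% ± 0.353 in control and 1.32% ± 0.441 in KO (n = 3 each, exact permutation p = 0.400), and there the groups overlapped. Genes of 2 to 3 kb had 20, 41 and 49 peaks in control and 53, 56 and 41 in KO, and genes of 3 to 5 kb had 55, 149 and 153 against 163, 149 and 122, both with overlapping groups. All 8 share comparisons, over the 3 span bins and their sum with and without the housekeeping families, had an adjusted p of 1.00 (exact permutation tests, Benjamini-Hochberg over 8). With all lists cut to the 2918 peaks of highest significance, the excess in genes under 2 kb was 12.7 peaks in place of 22.0, and the groups overlapped (exact permutation p = 0.300, n = 3 each).

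Ribosomal protein, respiratory chain and histone genes had more peaks in each KO library than in any control. These families (symbols starting Rpl, Rps, Nduf, Cox or Atp5, and histone genes) held 81 of the 583 regions. They had 7, 25 and 23 peaks in controls 1, 2 and 3 and 47, 36 and 38 in KO 1, 2 and 3, and the groups did not overlap. Among genes under 2 kb they had 2, 6 and 3 peaks in control and 17, 15 and 16 in KO, while the other genes of that span had 16, 34 and 32 in control and 38, 40 and 33 in KO, where KO 3 fell among the controls. The means over all spans were 18.3 ± 9.87 and 40.3 ± 5.86 (SD, n = 3 each; exact permutation p = 0.1, the smallest possible). By the number of genes with a peak, ribosomal protein and histone genes each separated the groups, while Nduf, Cox and Atp5 genes did not. As a share of each list the families took 0.229%, 0.750% and 0.788% in control and 1.28%, 0.536% and 1.28% in KO, where KO 2 fell among the controls (exact permutation p = 0.300, n = 3 each). That these families had more peaks in KO was known when the regions were chosen, so it is a description. The deeper KO pull-downs moved with it, and in lists of equal length the excess was 17.7 peaks in place of 22.0, with overlapping groups.

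Most regions of the families that were called in 1 genotype were called in KO. Of their 81 regions, 53 (65.4%) appeared only in KO lists and 7 (8.64%) only in control lists, against 51.7% and 27.4% of all 13137 regions. By the share in KO alone the tilt was steepest under 2 kb, where 26 of 32 family regions (81.2%) were in KO alone and 2 in control alone. At 2 to 3 kb the counts were 12 and 4 of 19, and at 3 to 5 kb 15 and 1 of 30, so by the ratio of the counts it was steepest at 3 to 5 kb. Leaving out KO 2 took the families' KO-alone count from 53 to 34, and leaving out control 1 and KO 2 together gave 34 in KO alone against 7 in control alone. In lists of equal length it was 43 against 7. In bulk tissue, fewer cells of a type and less RNA per cell cannot be told apart, and the level of these transcripts was not measured here.

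Histone genes, which encode the proteins that DNA wraps around, showed the tilt when counted by gene. Of 75 annotated histone genes under 5 kb, 23 had a region, 18 of them in KO alone and 1 (H3c15) in control alone. Over all 5575 protein-coding genes with a peak, 32.2% had calls in KO alone and 21.6% in control alone. The number of histone genes with a peak was 1, 5 and 3 in controls 1, 2 and 3 and 15, 8 and 14 in KO 1, 2 and 3. No control library reached the lowest KO library. Set against list length, KO 2 (8 genes, 6711 peaks) fell below control 2 (5 genes, 3334 peaks), so there the groups overlapped. H2aj, an H2A variant gene whose region is at chr6:136808370-136808745, was called in KO 1, 2 and 3 and in no control. The linker histone genes H1f2 and H1f3 were called in KO 2 and KO 3 alone, and H4c1 and H3c2 in KO 1 and KO 3 alone. H3c13, the shortest gene with a region in at least 3 libraries (502 bp), had fold enrichments over the local background of 5.51, 9.51 and 5.65 in controls 1, 2 and 3 and 7.70, 2.68 and 9.06 in KO 1, 2 and 3. Its region, whose first 49 bases are the capitals printed above, was thus called in both genotypes. H3c14 lacked a call only in control 1, and so did H1f0. Fold enrichments are the authors' own value for each peak, and lists of different depth are not on one scale, so they describe a call and are not compared between libraries. Clustered histone genes are near-identical copies, so which copy carried a peak is uncertain and their calls are not independent.

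Ribosomal protein genes also had more calls in KO. Of 71 under 5 kb, 23 had a region, 16 in KO alone and 1 (Rplp1, a stalk protein of the large subunit) in control alone. Beside them stand 32.2% and 21.6% of all genes with a peak, and 39.5% and 20.1% of short genes with a peak. The number with a peak was 2, 7 and 7 in controls 1, 2 and 3 and 14, 17 and 10 in KO 1, 2 and 3, again without overlap. Rpl37 and Rpl41, both of the large subunit, were called in every KO library and in no control, with fold enrichments of 6.88, 6.40 and 4.03 and of 3.65, 4.50 and 3.06 in KO 1, 2 and 3. Fau, which encodes a ubiquitin-like protein fused to a small-subunit protein and is outside the families by its symbol, had a region of the same kind at 4.85, 4.68 and 5.90. Rpl13a and Rps16 were the ribosomal genes called in all 6 libraries. At Rpl13a a region 177 bp from the start had 15.6, 19.6 and 23.4 in controls 1, 2 and 3 and 9.87, 7.03 and 12.7 in KO 1, 2 and 3. Rps16 had such a region 1824 bp from the start, near the gene's end, and a second region near the start that only KO 1 and KO 3 called. Rps18 lacked a call only in control 1, and a region each in Rps2 and Rps6 and a second one in Rpl13a lacked calls in control 1 and KO 2. KO 2 had a peak elsewhere in Rps6. Ribosomal protein genes have many processed pseudogenes, so their peaks are uncertain in the same way.

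The respiratory chain genes were few and divided. Nduf genes encode subunits of complex I, and 6 of 11 under 5 kb had a region, 4 of them in KO alone. Ndufb7 had a region 191 bp from the start in both groups (6.45 and 7.65 in controls 2 and 3, 13.2 and 12.0 in KO 1 and KO 3). Cox genes encode subunits and assembly factors of cytochrome c oxidase, and of the 5 of 11 with a region only Cox14 was in KO alone. The number of Cox genes with a peak was 4, 4 and 3 in control and 5, 2 and 3 in KO, which overlap. Cox6a1 was called in all 6 libraries 194 bp from its start, Cox20 in all but KO 2, and a Cox5b region 271 bp from the start in controls 1 and 2 and in KO 1 and KO 3. KO 2 called Cox5b elsewhere. Of 5 genes starting Atp5, which encode ATP synthase subunits, Atp5g3 had regions in both genotypes and Atp5h in KO 2 alone.

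Outside the families, more short-gene regions were called in KO alone than in control alone, but less so than among all regions. The ratio of KO-alone to control-alone regions was 1.69, against 1.89 for all regions. Of the 502 such regions, 204 (40.6%) were in KO alone and 121 (24.1%) in control alone, against 51.7% and 27.4% of all regions. Over all 583 short-gene regions the values were 257 (44.1%) and 128 (22.0%), and 198 (34.0%) were called in both genotypes. Without the families, KO alone took 43.8%, 40.0% and 39.9% of regions in genes under 2 kb, of 2 to 3 kb and of 3 to 5 kb, and control alone took 22.5%, 23.2% and 24.8%. With the families the KO-alone shares were 53.7%, 43.9% and 40.8%, the first of them near the share of all regions. The rise toward the shortest genes was thus larger with the families than without them. The comparison with the background depends on the unit counted. Counted by gene, 39.5% of the 423 short genes had calls in KO alone and 20.1% in control alone, against 32.2% and 21.6% of all 5575 protein-coding genes with a peak. Of the 100 genes under 2 kb, 50 had calls in KO alone and 19 in control alone.

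**Figure D2:**
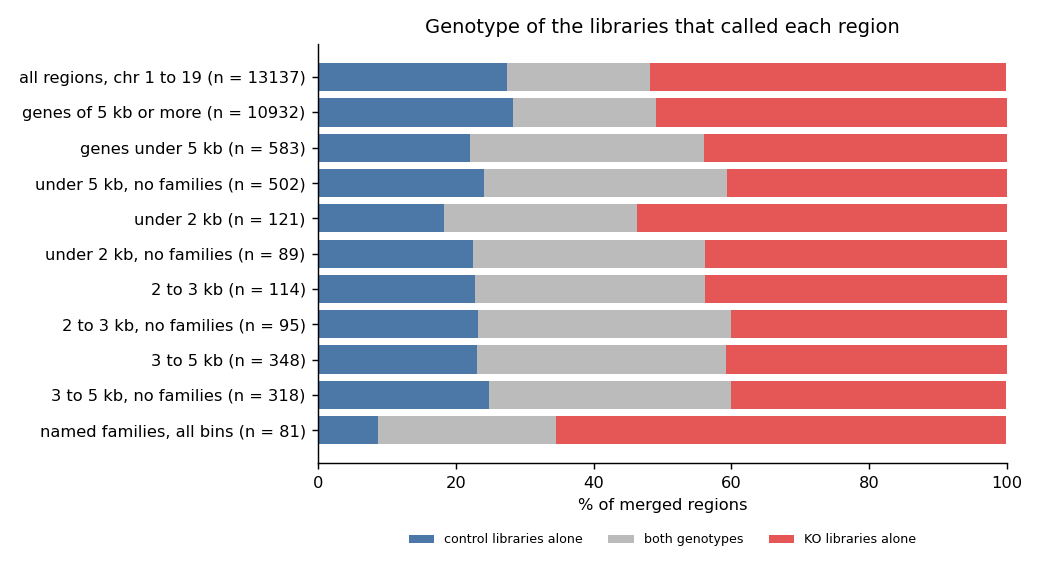
Percentage of merged regions found only in control lists, in lists of both genotypes and only in KO lists, for all regions, for genes of 5 kb or more and for each span bin with and without the ribosomal protein, respiratory chain and histone families. KO alone takes 65.4% of family regions, 53.7% of all regions in genes under 2 kb and 43.8% of those outside the families, against 51.7% of all regions.

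These KO-alone counts rest to a large part on KO 2. Without it 156 short-gene regions were in KO alone, against 257 with it, and the count for genes under 2 kb was 42 in place of 65. Without control 1 and KO 2 together, 157 (34.2%) were in KO alone and 128 (27.9%) in control alone, against 37.6% and 29.6% of all regions. In lists of equal length the counts were 176 (35.7%) and 137 (27.8%), while all regions stood at 37.0% and 38.0%.

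A larger share of short-gene regions than of all regions was called in every library. Of the 583, 36 (6.17%) were called in all 6 libraries, against 2.95% of all regions, and 288 (49.4%) in a single library, against 68.9%. The share in all 6 was 5.79% under 2 kb, 9.65% at 2 to 3 kb and 5.17% at 3 to 5 kb. Between control 2 and control 3, the regions called by both were a fraction of 0.526 of those called by either, against 0.462 for all regions, and between KO 1 and KO 3 it was 0.436 against 0.371. Between these controls and these KO libraries the fraction was lower, 0.342 to 0.361 for short genes and 0.284 to 0.312 for all regions. Taken within each library, the percentage of regions called in that library alone was 23.7%, 14.5% and 16.2% for short genes in controls 1, 2 and 3 and 22.5%, 39.8% and 15.9% in KO 1, 2 and 3. For genes of 5 kb or more it was 68.9%, 19.5% and 17.4%, and 28.5%, 65.2% and 20.7%. The short-gene value was lower in 6 of 6 libraries, by 14.6 ± 17.3 percentage points in the mean (SD, n = 6; exact sign-flip permutation test, p = 0.0312, adjusted over 6 measures 0.0469). That test takes the 6 differences as independent. They are not, since whether a region is called in 1 library alone depends on the other lists. The gap was widest in control 1 and KO 2; without control 1 the mean was -8.45 and without both -4.21 percentage points, still lower in each remaining library, where the exact test with 5 and 4 libraries can reach only 0.0625 and 0.125.

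The regions called in every library covered housekeeping genes, stress genes and genes of neurons and glia. Hexim1 encodes an inhibitor of the elongation factor P-TEFb that acts with the 7SK RNA. Its region at chr11:103116253-103116654 had fold enrichments of 24.4, 16.4 and 14.2 in controls 1, 2 and 3 and 18.5, 14.9 and 12.8 in KO 1, 2 and 3, and no other of the 36 regions had a higher minimum. Hnrnpa0, an RNA-binding protein gene, had 15.5, 11.5 and 18.3 and 18.1, 13.3 and 8.01 in the same order. Actg1, the gene of a cytoplasmic actin, had 17.4, 10.1 and 11.7 and 11.5, 7.91 and 10.0. Each of these had a fold enrichment of at least 7.91 in every library. Sfr1, a recombination repair gene, and Cenpb, the gene of a centromere DNA-binding protein, were in the same class, as were Pabpn1 (nuclear poly(A)-binding protein), Fkbp2 (an isomerase of the endoplasmic reticulum), Mrfap1 and Smdt1, which encodes a regulator of the mitochondrial calcium uniporter. The region in Gm46487 lies within Pcca and that in LOC115488529 within Zfp706. That in Prrt1 lies also within Ppt2 and that in Fkbp2 also within LOC114841036, so the host of each of these regions is uncertain. So it is for 80 of the 583 regions (13.7%), whose summit lay in a further annotated gene.

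The metallothionein genes Mt1, Mt2 and Mt3, whose small proteins bind zinc and copper and are abundant in astrocytes, stand side by side on chromosome 8. Mt3 had regions near both ends that all 6 libraries called, the later of them with 5.70, 5.73 and 5.81 in controls 1, 2 and 3 and 5.88, 3.77 and 5.64 in KO 1, 2 and 3. The Mt2 region had 20.2, 12.9 and 5.93 in control and 16.2, 10.5 and 14.8 in KO, and the Mt1 region lacked a call only in control 1. Of the astrocyte markers, 3, 6 and 6 had a peak in controls 1, 2 and 3 and 6, 5 and 6 in KO 1, 2 and 3, so only control 1 was low.

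**Figure D3:**
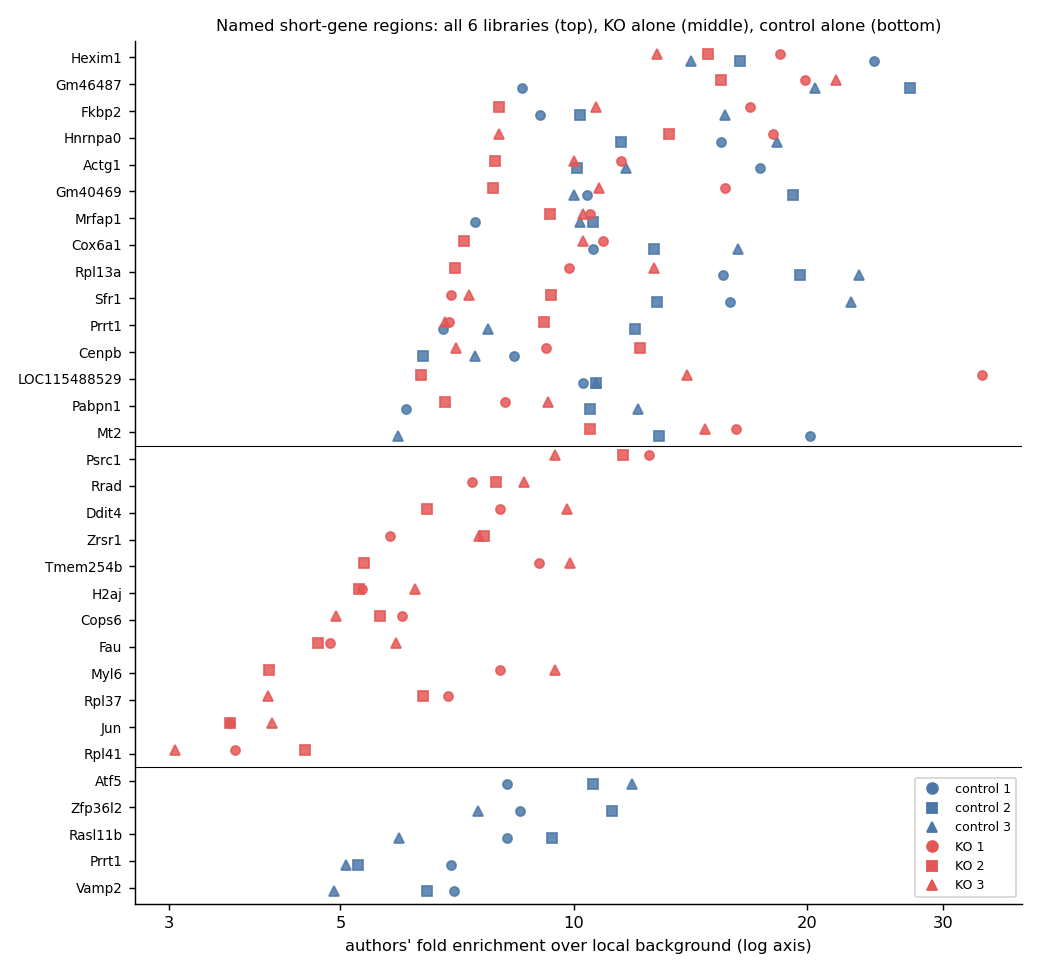
The authors' fold enrichment over local background (log axis) at the 15 highest-ranked regions called in all 6 libraries (top, ranked by their lowest value), the 12 that every KO library and no control called (middle) and the 5 that every control and no KO library called (bottom). Points are libraries, coloured by genotype; Hexim1 at the top lies between 12.8 and 24.4, and Rpl41, the lowest of the middle block, between 3.06 and 4.50.

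Regions called in every library of 1 genotype and in none of the other were few. There were 12 for KO (2.06% of the 583, against 1.45% of all regions) and 5 for control (0.858%, against 0.807%), which is near the share of regions in general. The 12 were in Psrc1, Rrad, Ddit4, Zrsr1, Tmem254b, H2aj, Cops6, Fau, Myl6, Rpl37, Jun and Rpl41. Psrc1, a microtubule-associated protein gene, had the highest values, 12.5, 11.6 and 9.47 in KO 1, 2 and 3. Ddit4, a stress-induced inhibitor of mTORC1, had 8.03, 6.46 and 9.81, and Rrad, a small GTPase gene, had 7.40, 7.93 and 8.64. In lists of equal length Rrad, Tmem254b and Myl6 kept 2 of their 3 calls and Cops6 kept 1. The fold enrichments of Psrc1, Ddit4 and Rrad lay above those of Jun (3.60, 3.60 and 4.08) and Rpl41, which were the weakest of the 12. Zrsr1 lies inside the larger gene Commd1, and Tmem254b has a near-identical copy, Tmem254c, so both are uncertain. Tmem254c had a peak in KO 1, 2 and 3 and also in control 2, 345 bp from its start. The absence of Tmem254b from the control lists may thus not hold for the sequence.

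Each of the 5 control regions lay in a different gene. Atf5, a stress-response transcription factor gene, had 8.21, 10.6 and 11.9 in controls 1, 2 and 3 at chr7:44816312-44816646, where Nup62 and Il4i1b also span the summit. Zfp36l2, whose protein speeds the decay of AU-rich messenger RNAs, had 8.52, 11.2 and 7.52, and Rasl11b, a Ras-like GTPase gene, had 8.21, 9.37 and 5.95. The last 2 lay in Prrt1 and Vamp2, which also had another region called in all 6 libraries, so these genes were called in both genotypes. When any KO library was left out the KO class grew to between 21 and 35 regions, since only 2 libraries then had to call, and the control class held 30 without control 1, 9 without control 3 and 10 without KO 2. Without control 1 and KO 2 the classes held 35 for KO and 42 for control, 7.63% and 9.15% of the remaining short-gene regions, against 7.27% and 8.10% of all regions.

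Stress and chaperone genes had more calls in KO. Of 10 stress and chaperone genes under 5 kb, 7 had a region, 4 of them in KO alone and 0 in control alone. Over all genes with a peak these shares were 32.2% and 21.6%, and over short genes with a peak 39.5% and 20.1%. The number with a peak was 1, 2 and 3 in controls 1, 2 and 3 and 7, 6 and 4 in KO 1, 2 and 3, without overlap. Set against list length, KO 2 (6 genes, 6711 peaks) fell below control 3 (3 genes, 2918 peaks), so there the groups overlapped. Hspa1a and Hspa1b, which encode inducible forms of the heat shock protein Hsp70, were called in KO 1 and KO 2 alone, Hspa2 in KO 1 alone and Ddit4 in all 3 KO libraries. Hspa1a and Hspa1b are near-identical copies, so their calls are not independent. The ubiquitin gene Ubb and Hexim1 were called in both genotypes. This list was chosen with earlier results of these data known, and the deeper KO pull-downs moved with its count; their part was not tested.

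Immediate early genes, which neurons switch on within minutes of activity, were called in both groups. Of 16 under 5 kb, 9 had a region, with 2, 7 and 4 in controls 1, 2 and 3 and 5, 4 and 6 in KO 1, 2 and 3. Jund, a subunit of the transcription factor AP-1, was called in all 6 libraries with 22.4, 15.2 and 14.2 in control and 12.6, 4.71 and 12.2 in KO. Egr1, a zinc finger transcription factor gene, shared with Ajm1 and Ddn the highest number of separate regions, 5. Its strongest region was called in all 6 libraries, with 31.5, 13.3 and 14.5 in control and 9.03, 4.77 and 4.66 in KO, and 2 further regions in all 3 controls and in 2 and 1 KO libraries. Jun had 4 regions, 3 of which only KO libraries called. The fourth was called in all libraries but control 1. Regions of 1 transcript are not independent of each other.

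The transcription factor, synaptic and cytoskeleton lists did not separate the groups by the number of genes with a peak. Among the short transcription factor genes 1 had calls in KO alone and 4 in control alone. For the synaptic list these counts were 0 and 2, and for the cytoskeleton list 1 and 2. Over short genes with a peak the shares were 39.5% and 20.1%. Of 29 short transcription factor genes 13 had a region, with 3, 6 and 9 in controls 1, 2 and 3 and 6, 6 and 5 in KO 1, 2 and 3; Sox2, a stem cell factor, and Id4, an inhibitor of DNA binding, lacked a call only in control 1, and Irf2bp1 was called in controls 2 and 3 and in KO 1 and KO 2. Of 9 synaptic and secreted protein genes 5 had a region, with 1, 4 and 4 against 3, 2 and 1. Vamp2, the vesicle SNARE, had 4 regions, of which 1 was called in all 6 libraries (8.85, 3.51 and 4.53 in control, 10.5, 5.93 and 6.04 in KO). Of 19 cytoskeleton and GTPase genes 13 had a region, with 3, 9 and 11 against 9, 8 and 9, and Actb, Actg1 and Tuba1a were called in all 6 libraries. Cfl1, an actin-severing protein gene, lacked a call only in control 1, and so did Tubb2b, a tubulin gene. Camk2n1, which encodes an inhibitor of the kinase CaMKII, was called in controls 2 and 3 and in KO 1 and KO 2. Sst, the peptide gene of a striatal interneuron class, was called in controls 2 and 3 alone.

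Short-gene peaks stood out from their lists in tag coverage and not in fold enrichment. The median pileup, the authors' tag coverage at the summit, was 15, 28.5 and 26.0 in short genes of controls 1, 2 and 3 and 26.0, 34.0 and 32.0 in KO 1, 2 and 3. In genes of 5 kb or more it was 4, 19 and 17 and 17, 18 and 19. The short-gene median was higher in 6 of 6 libraries, by 0.90 ± 0.51 on the log2 scale (SD, n = 6; exact sign-flip permutation test, p = 0.0312, adjusted 0.0469). The local background, derived from the deposited pileup and fold, was higher in 6 of 6 libraries by 1.80 ± 0.81 on the log2 scale, with the same exact p. Since it is computed from pileup and fold, it is not a result separate from them. The median fold enrichment, by contrast, was 6.95, 6.64 and 6.44 in control and 6.76, 5.81 and 6.77 in KO, against 4.64, 7.16 and 7.21 and 7.22, 7.21 and 7.53 in longer genes. It was lower in 5 of 6 libraries and higher in control 1, a mean of -0.04 ± 0.31 on the log2 scale (n = 6, exact permutation p = 0.812).

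The median −log10 q was also higher in 6 of 6 libraries, by 0.48 ± 0.49 on the log2 scale (n = 6, exact permutation p = 0.0312, adjusted 0.0469). Control 1 had the widest gap in each of these measures. Without it the differences were 0.70 in pileup, 1.48 in local background, 0.28 in −log10 q and -0.17 in fold enrichment, each in 1 direction in all 5 libraries. The difference in log2 fold enrichment between short and longer genes did not separate the genotypes (KO minus control -0.29, n = 3 each, exact permutation p = 0.5). Peak length differed by 0.09 ± 0.12 on the log2 scale (n = 6, exact permutation p = 0.0625).

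**Figure D4:**
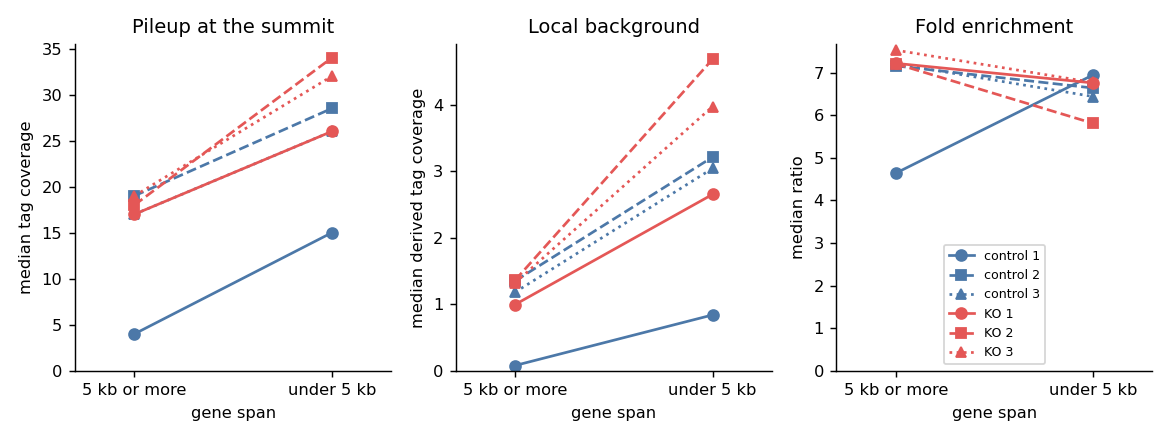
Median pileup at the summit, median derived local background and median fold enrichment of peaks in genes of 5 kb or more and under 5 kb, with 1 line for each library coloured by genotype. Pileup and local background rise from longer to short genes in all 6 libraries, while fold enrichment falls in 5 and rises in control 1 (4.64 to 6.95).

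Summits gathered near the start of short genes in 5 of the 6 libraries. The strand and the start were known for 472 of the 583 regions. Of these, 181 (38.3%) had their best summit in the first 20% of the span, 75 (15.9%) in the last 20%, and 146 (30.9%) within 300 bp of the start. Per library, 48.0%, 45.3% and 44.3% of short-gene peaks in controls 1, 2 and 3 and 42.1%, 23.6% and 47.8% in KO 1, 2 and 3 lay in the first 20%. KO 2 was the low one, and it also had 29.3% in the last 20%, against 9.68% to 16.0% in the other 5. In genes of 5 to 20 kb the first 20% held 44.6%, 52.9% and 51.9% in controls 1, 2 and 3. In KO 1, 2 and 3 it held 51.7%, 33.9% and 60.7%, so KO 2 was again the lowest. These values were higher than those of short genes in each library but control 1, so the gathering was not particular to short genes. The KO mean of 37.8% ± 12.7 and the control mean of 45.9% ± 1.93 were not separated (n = 3 each, exact permutation p = 0.400). Exons and introns were not used here, so a position along the span is not a position along the mature RNA.

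**Figure D5:**
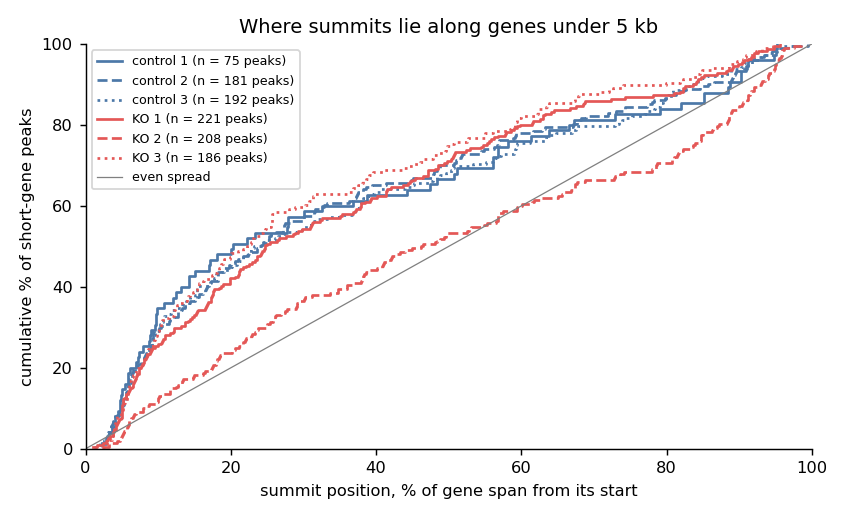
Cumulative percentage of short-gene peaks by the position of the summit along the gene span, from its start (0%) to its end (100%), with 1 line for each library and a grey line for an even spread. The curve of KO 2 stays close to the even spread (23.6% of summits in the first 20%), while those of the other 5 libraries rise early (42.1% to 48.0%).

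Short genes with a region had more G and C around their start than short genes without. RefSeq windows of 300 bases, 250 before the start and 50 after, were found for 346 of the 419 short genes that regions were assigned to (a region in several short genes counts for the shortest) and for 3336 of the 4150 others. The median GC content was 60.5% with a region, 47.0% without, and 56.7% over all protein-coding genes. Under 2 kb the medians were 57.7% and 39.3%, at 2 to 3 kb 62.2% and 53.3%, and at 3 to 5 kb 60.7% and 54.3%. Genes called in KO alone had 59.3% and those in control alone 63.3%. The motif GTTCNA, searched on both strands as the DNA form of the T-loop-like motif, was in 26.6% of windows with a region, 34.7% of those without and 28.6% of all windows. It was thus not more frequent in the windows of the genes with a region. The windows are genomic DNA mostly outside the transcript, a match is only a match of letters, and GC content moves with the motif's chance to occur. Genes under 2 kb also had a region least often, 100 of 2291 (4.36%), against 12.2% at 2 to 3 kb and 15.1% at 3 to 5 kb, and how much each gene was transcribed was not measured here.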

How the data were processed

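Per the submitters' processing notes the tools were cutadapt 2.8, HISAT2 2.1.0 and MACS2 2.2.6, with build GRCm38. Per the file headers, MACS2 called each pull-down on its own, with the matching input as background and a q-value limit of 0.01. The deposited lists give for each peak the authors' pileup, a signal of tag coverage, the −log10 p and −log10 q, and the fold enrichment, a ratio over the local background. Control 1 was called with all duplicate tags kept, per the file headers.

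Peaks were placed by their summit in RefSeq GRCm38.p6 gene spans and merged across lists where they shared at least 1 bp. A summit in several short genes took the shortest. Absence from a list means only that no peak passed the limit at that depth, not that m1A was absent, and a call carries no counting interval. Library values were compared by exact permutation over 20 assignments, and short against longer genes within libraries by exact sign flips over 64 sign patterns. The local background was (pileup + 1) / fold − 1, which assumes the caller's default pseudocount of 1. Scripts used Python 3.11.15 and pandas 2.3.3 and were tested on simulated data.

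Named regions were those called in all 6 libraries (the 15 with the highest lowest fold enrichment) and those called in all libraries of 1 genotype and none of the other, plus list members with a region in 4 or more libraries, the genes with the most regions, and the shortest gene with a region in 3 or more. Other names were chosen after their values were seen. Members and lists were chosen with earlier results of these data known. Same-numbered libraries of the groups did not deviate together (r = -0.026, -0.019 and -0.007), so the numbers were not used as pairs. Exons and genome sequence beyond the start windows were not used here. A few list members are not reported here.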

Additional observations from a re-analysis of the deposited data

How the results depend on the processing

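Of 289 alternatives to the main values, 211 kept direction, side of the threshold and, for counts, a size within 1.5 times. No genotype comparison of library values could pass 0.05 under any setting. With a −log10 q of at least 5 the KO minus control share of short-gene peaks was -1.01 percentage points, that of genes of 2 to 3 kb -0.278 and that of genes under 2 kb outside the families -0.0918. With a fold enrichment of at least 4 they were -0.601, -0.0440 and -0.0309. In lists of equal length the 3 to 5 kb share was 0.0685 and the 2 to 3 kb share outside the families 0.0343, and with summits in no other gene the latter was 0.0653. Without control 1 and KO 2 the short-gene share was -0.253, the 2 to 3 kb share -0.0429 and the log2 fold enrichment difference between genotypes 0.01. The cause of these turns was not tested.

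Leaving out 1 library gave -1.38 to 1.24 for the short-gene share (-1.64 to 0.619 outside the families), -0.145 to 0.193 for genes under 2 kb outside the families, -0.235 to 0.278 for 2 to 3 kb (-0.240 to 0.203 outside), and -1.27 to 0.456 for 3 to 5 kb (-1.26 to 0.274 outside). KO-only regions in all libraries ranged from 12 to 35 and control-only from 6 to 30. KO-alone counts ranged from 156 to 290 for all short genes, 34 to 55 for the families and 42 to 72 under 2 kb. KO-only regions numbered 19 with a span limit of 6000 bp, and control-only regions 3 with summits in no other gene and 2 with a limit of 4000 bp. Without control 1 and KO 2, KO-only and control-only regions numbered 35 and 42, and KO-alone counts were 157, 34 and 42.

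Within libraries, leaving out 1 library gave 0.70 to 0.96 for pileup, 0.28 to 0.53 for −log10 q, 1.48 to 1.91 for local background, -0.17 to 0.01 for fold enrichment and -17.3 to -8.45 percentage points for regions called in 1 library alone. Without control 1 and KO 2 the values were 0.64, 0.26, 1.40, -0.13 and -4.21. With 5 or 4 libraries the exact test cannot reach 0.05, so the calls end by construction. These within-library alternatives, and those of the families and of regions under 2 kb, were chosen after seeing the data. The replicate block, differences between same-numbered libraries, left the short-gene share difference at 0.110 (exact sign-flip p = 1.00, n = 3) and changed no call. Of the 32 regions named by class, all kept their calls with a −log10 q of at least 5, 30 with a fold enrichment of at least 4 (not Jun and Rpl41) and 28 in lists of equal length (not Rrad, Tmem254b, Myl6 and Cops6, 4 of the 12 KO-only regions). Depth limits every absence: the shallowest library, control 1, had 459332 tags.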
